A study of Homo sapiens with 6 samples.

Results

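The cytosolic heat shock chaperones described here are 10 genes chosen by name, HSPA8, HSPA1L and HSPA6 of the HSP70 family, HSPA4 and HSPH1 of the HSP110 family, HSP90AA1 and HSP90AB1, the J-domain proteins DNAJA1 and DNAJB1, and the small heat shock protein HSPB1. Their probe sets were those whose annotation holds 1 gene symbol and no other, which gave 20 probe sets for 9 of the 10 genes, among 22215 probe sets and 11963 named genes in all. HSPA8 had no such probe set. SH-SY5Y is an established human neuroblastoma line that is used as a model of neurons. The cells, grown in medium with foetal bovine serum, were exposed for 1 h to free bilirubin (Bf) at 140 nM in medium with 0.6% DMSO, its solvent, or to 0.6% DMSO alone, with 3 arrays in each group (Bf 140 nM and DMSO 0.6%). Both groups carry the replicate numbers 1, 2 and 3, each flask received 1 treatment, and a single cell line cannot stand for neurons at large.

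Cytosolic chaperones keep newly made and damaged proteins from clumping and help them to fold. HSP70 proteins hold exposed stretches of a client, J-domain proteins bring them the client and start the ATP cycle, HSP110 proteins release the spent nucleotide, HSP90 proteins finish kinases and receptors, and small heat shock proteins hold unfolded proteins until the others act. Heat, oxidants and other insults that unfold proteins free the heat shock factor HSF1, which binds heat shock elements (inverted repeats of the unit GAA) and drives the inducible genes, whereas constitutive genes such as HSPA8 and HSP90AB1 are transcribed without stress. Neurons are known for a weak heat shock response.

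The heat shock elements of these genes are shown first, because they mark which members carry the sequence that HSF1 reads. An element of 3 units (GAANNTTC followed directly by NNGAA or, on the other strand, TTCNNGAA followed by NNTTC, with N for any base) was searched on both strands in the RefSeq promoters of build GRCh38.p14, from 250 bases before to 50 bases after each start. It was found in 5 of the 15 promoters of these genes, 1 each of HSPA8, HSPA6, HSP90AA1, HSP90AB1 and DNAJA1, and in 0.49% of all 35116 promoters. The element of 2 units GAANNTTC, which lies within the longer one, was found in 9 of the 15 promoters, which belong to 8 of the 10 genes, and in 6.77% of all promoters, and HSPA4 and HSPH1 had neither in these windows. The 3 stretches below are written from 5′ to 3′ on the strand of the gene, with the 3-unit element in capitals. That of HSPA6 lies at chr1:161524446-161524498 on the plus strand, 74 bases before the start of the gene. That of HSP90AA1 lies at chr14:102087100-102087152 on the minus strand and begins 88 bases before the more downstream of its listed starts. The HSP90AB1 promoter holds 2 such elements, as does that of HSPA8. The one shown for HSP90AB1, the nearer to the start, lies at chr6:44247811-44247863 on the plus strand and begins 112 bases before one of its starts.
HSPA6: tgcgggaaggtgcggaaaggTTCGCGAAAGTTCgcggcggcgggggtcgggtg
HSP90AA1: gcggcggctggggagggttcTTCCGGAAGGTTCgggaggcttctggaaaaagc
HSP90AB1: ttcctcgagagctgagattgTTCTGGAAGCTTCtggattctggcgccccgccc
The match says only that these letters stand in the promoter, and the transcripts were measured separately on the arrays.

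The values are the authors' log2 values after variance-stabilizing normalization (VSN), on which 1 unit is 2-fold well above background and a fold at dim probe sets comes out too small. Array medians over all probe sets lay between 7.78 and 7.97 in Bf 140 nM and between 7.73 and 7.95 in DMSO 0.6%. Of 8 measured markers of noradrenergic neuroblastoma, 6 (PHOX2A, GATA3, ISL1, DBH, CHGA and STMN2) were above the median on every array, with list means of 11.2 to 11.37 in Bf 140 nM and 11.12 to 11.36 in DMSO 0.6%. Of 5 fibroblast and mesenchymal markers, 4 (COL1A1, COL3A1, LUM and DCN) were above it as well, with list means of 8.68 to 8.91 in Bf 140 nM and 8.79 to 8.94 in DMSO 0.6%, while 0 of 3 markers each of white blood cells and of epithelium were. The arrays of replicate 3 stood apart in both groups: actin was brighter at its 3′ than at its 5′ end by 1.49 in Bf 140 nM and 1.90 in DMSO 0.6%, and by 0.10 to 0.50 log2 on the other 4 arrays. For GAPDH the same value was 1.03 in Bf 140 nM and 1.15 in DMSO 0.6% in replicate 3, and 0.20 to 0.25 log2 on the other arrays.

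Most of the chaperones were bright in these cells in either medium. On every array 17 of the 20 member probe sets lay above the median of all probe sets, and the other 3, those of HSPA6 and HSPA1L, lay below it. Probe sets differ in brightness per molecule, so each level is given beside the array's own distribution and is not an abundance relative to other genes. In bulk RNA, fewer cells with a transcript and less of it per cell cannot be told apart.

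**Figure D1:**
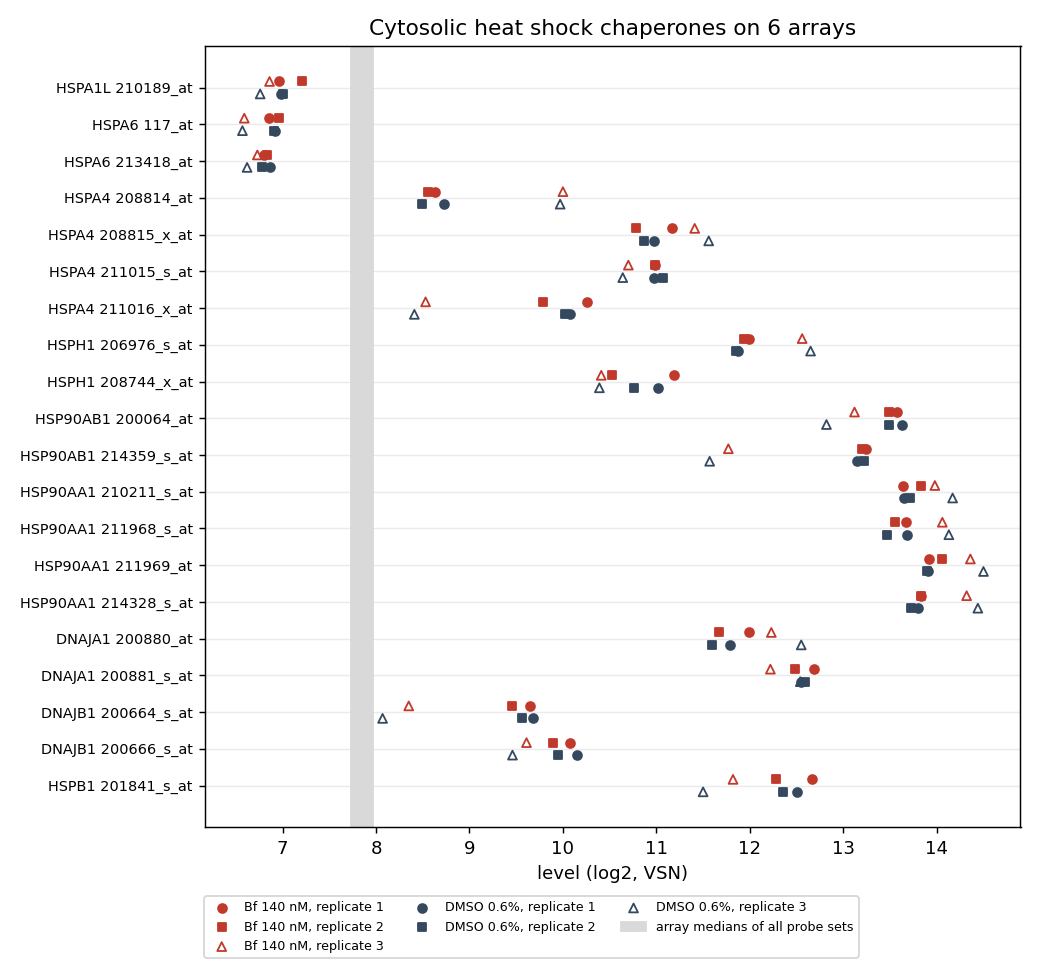
Level of each member probe set (horizontal axis, log2 after VSN) on each of the 6 arrays. Red symbols are Bf 140 nM and dark symbols below them DMSO 0.6%, circles, squares and open triangles are replicates 1, 2 and 3, and the grey band spans the array medians of all probe sets, 7.73 to 7.97. The 3 probe sets of HSPA6 and HSPA1L lie left of the band on every array and the other 17 right of it.

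Of the constitutive genes, HSP90AB1, the HSP90 that cells make without stress, was at 13.40 ± 0.24 in Bf 140 nM and 13.31 ± 0.43 in DMSO 0.6% (SD, n = 3 each) on probe set 200064_at, at the percentile 97.6 or above on each array. HSPA4, an HSP110 protein made in most tissues, was at 10.89 ± 0.17 in Bf 140 nM and 10.90 ± 0.23 in DMSO 0.6% on 211015_s_at (SD, n = 3 each). Its other 3 probe sets had mean levels from 9.07 to 11.13. HSPA1L, an HSP70 gene that lies beside the stress-inducible HSP70 genes on chromosome 6 and is known for its expression in testis, was at 7.01 ± 0.18 in Bf 140 nM and 6.91 ± 0.14 in DMSO 0.6% (SD, n = 3 each), between the percentiles 25.5 and 33.3 of all probe sets. The constitutive genes thus held probe sets near the top of the array and one in its lower part.

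The inducible genes were as divided. HSP90AA1, the stress-inducible HSP90, was at or above the percentile 99.1 on each array with each of its 4 probe sets, and on 211969_at it was at 14.12 ± 0.22 in Bf 140 nM and 14.10 ± 0.34 in DMSO 0.6% (SD, n = 3 each). HSPB1 (HSP27), which binds unfolded proteins and actin, was at 12.26 ± 0.43 in Bf 140 nM and 12.12 ± 0.54 in DMSO 0.6% (SD, n = 3 each). DNAJB1 (HSP40), a J-domain partner of the inducible HSP70, was at 9.86 ± 0.24 in Bf 140 nM and 9.86 ± 0.35 in DMSO 0.6% on 200666_s_at (SD, n = 3 each). HSPA6, an HSP70 gene of humans that is silent in most unstressed cells and strongly driven by HSF1, stayed low in both groups. Its probe set 117_at read 6.85, 6.96 and 6.59 in Bf 140 nM and 6.92, 6.91 and 6.57 in DMSO 0.6% for replicates 1, 2 and 3, at the percentiles 17.5 to 25.8 of all probe sets. The probe set 213418_at read 6.80, 6.83 and 6.73 in Bf 140 nM and 6.87, 6.78 and 6.62 in DMSO 0.6%. On both probe sets the groups overlapped, and the lowest array of each group was that of replicate 3.

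The first comparison asks whether 1 h of free bilirubin changed these transcripts. None of the 20 member probe sets was called: by limma, with a threshold of 0.10 on the adjusted p, 0 rose and 0 fell in Bf 140 nM, where 0% of all probe sets were called higher and 0% lower. An unadjusted p under 0.05 was reached by 0 of the 20 and by 0.099% of all probe sets. With the replicate number as a block these shares were 0 of 20 and 1.22%, and still 0 members passed after adjustment. Both shares over all probe sets were below what a p under 0.05 would give if nothing changed. The fit without a block keeps the spread between replicate numbers in its error, so it was a weak test of small changes. The differences ran from -0.10 for DNAJA1 (200881_s_at) to 0.14 log2 for HSPB1, with 13 above and 7 below 0 before rounding and a median of 0.01, the same as over all probe sets. Taken without sign, the median was 0.02 log2 among members and 0.05 over all probe sets. The 7 probe sets of constitutive genes ran from -0.02 to 0.10 with a median of 0.03, and the 13 of inducible genes from -0.10 to 0.14 with a median of 0.00. The classes were not tested against each other.

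In the HSP70 family, HSPA6 differed by -0.00 log2 (95% confidence interval -0.36 to 0.36) on 117_at and by 0.03 (-0.21 to 0.26) on 213418_at. HSPA1L read 6.96, 7.21 and 6.86 in Bf 140 nM and 6.98, 7.0 and 6.76 in DMSO 0.6%, and its difference of 0.10 had an interval of -0.21 to 0.41. The array of Bf replicate 2 was the highest of the 6 and the rest overlapped. HSPA8 could not be given a value of its own, since its 3 probe sets are annotated jointly with SNORD14C and SNORD14D, small nucleolar RNAs from its introns. These 3 joint probe sets differed by -0.02, 0.01 and -0.07 log2. One further probe set, joint to HSPA1L and the stress-inducible genes HSPA1A and HSPA1B, differed by -0.02 (-1.34 to 1.31).

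In the HSP110 family, the 4 probe sets of HSPA4 differed by -0.02 to 0.03 log2 and the 2 of HSPH1 (HSP105), which is induced by heat, by -0.01 and 0.04. HSPH1 read 11.99, 11.94 and 12.56 in Bf 140 nM and 11.87, 11.85 and 12.65 in DMSO 0.6% on 206976_s_at. There the 2 arrays of replicate 3 were the high ones, and the groups overlapped.

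In the HSP90 family, HSP90AA1 differed by -0.03, 0.00, 0.01 and 0.00 log2 on its 4 probe sets. On 211969_at it read 13.92, 14.06 and 14.36 in Bf 140 nM and 13.91, 13.90 and 14.50 in DMSO 0.6%, so that again replicate 3 was highest in both groups. HSP90AB1 differed by 0.08 (-0.50 to 0.67) and 0.09 (-1.32 to 1.5). The width of the second interval goes with the 2 arrays of replicate 3, which were lower than the other 4.

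Among the J-domain proteins, DNAJA1, which helps HSP70 refold proteins and import them into mitochondria, read 12.69, 12.48 and 12.22 in Bf 140 nM and 12.55, 12.59 and 12.54 in DMSO 0.6% on 200881_s_at. The 3 DMSO arrays lay close together and the Bf arrays spread to both sides of them. The difference of -0.10 (-0.42 to 0.23) became 0.02 without both replicate 3 arrays, a removal chosen after seeing the data. DNAJB1 differed by 0.05 (-1.24 to 1.33) on 200664_s_at and 0.01 (-0.50 to 0.51) on 200666_s_at. HSPB1 read 12.67, 12.28 and 11.82 in Bf 140 nM and 12.50, 12.36 and 11.5 in DMSO 0.6%. Its groups overlapped, and the difference of 0.14 had an interval of -0.65 to 0.93. It became -0.17 without DMSO replicate 3, -0.07 without Bf replicate 1 and 0.36 without Bf replicate 3.

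**Figure D2:**
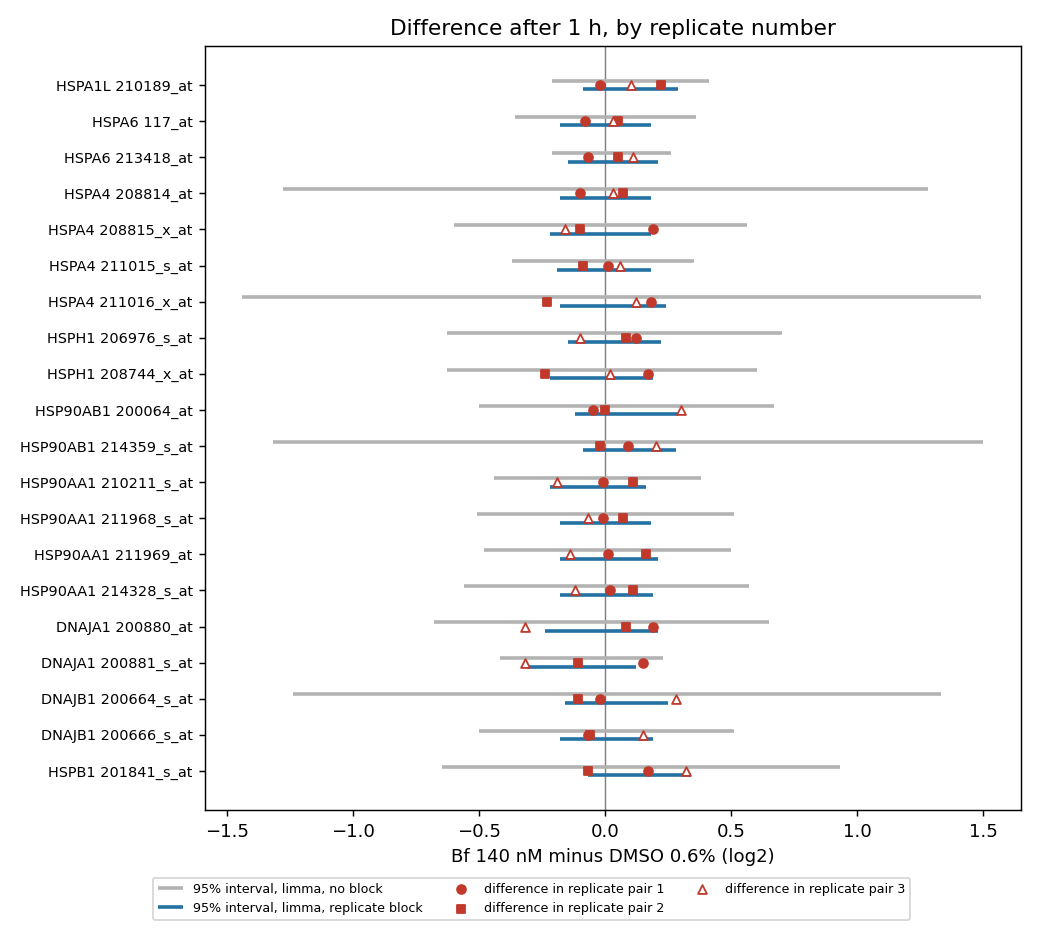
Bf 140 nM minus DMSO 0.6% (horizontal axis, log2) for the 20 member probe sets. Red symbols are the difference within replicate pair 1 (circles), 2 (squares) and 3 (open triangles), grey lines the 95% confidence interval from limma without a block and blue lines that with the replicate number as a block. Every interval spans 0, and the blue ones end between -0.31 and 0.34.

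The width of the intervals differed between probe sets. Without a block 16 of the 20 intervals lay within 1 log2 of 0, which is 2-fold only well above background. For the dim probe sets of HSPA6 and HSPA1L, which are among them, it does not bound the change at 2-fold. The widest were those of HSPA4 211016_x_at (-1.44 to 1.49), HSP90AB1 214359_s_at, DNAJB1 200664_s_at and HSPA4 208814_at (-1.28 to 1.28). Once the block was included all 20 lay within -0.31 to 0.34 log2, and 0 excluded 0. The median half-width was 0.57 log2 for members and 0.31 for all probe sets without the block, and 0.19 for both with it.

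Within replicate numbers the Bf array was compared with the DMSO array of its number. In pair 1 the member differences ran from -0.10 to 0.19 log2 with 11 positive, in pair 2 from -0.24 to 0.22 with 11 positive, and in pair 3 from -0.32 to 0.32 with 12 positive. Positive differences made up 56%, 48.4% and 57.3% of all probe sets in pairs 1, 2 and 3. Of the 20 member probe sets, 0 were above DMSO in all 3 pairs, where 11.8% of all probe sets were, and 0 were below it in all 3, where 5.83% were. In 0 members did the groups separate, with all Bf arrays above (2.06% of all probe sets) or all below (0.59%) the DMSO arrays.

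The pair differences of a gene often differed in sign. DNAJA1 differed by 0.19, 0.08 and -0.32 log2 in pairs 1, 2 and 3 on 200880_at and by 0.15, -0.11 and -0.32 on 200881_s_at, so both probe sets were lowest in pair 3. The 4 HSP90AA1 probe sets were all positive in pair 2, at 0.07 to 0.16, and all negative in pair 3, at -0.19 to -0.07. HSP90AB1 was at -0.05, 0.00 and 0.30 on 200064_at and at 0.09, -0.02 and 0.20 on 214359_s_at, and DNAJB1 at -0.02, -0.11 and 0.28 on 200664_s_at. In pair 3 the Bf array thus had more HSP90AB1, DNAJB1 and HSPB1 (0.32) and less HSP90AA1 and DNAJA1 than the DMSO array. In that pair the difference between the 3′ and 5′ ends of actin was smaller in Bf 140 nM (1.49) than in DMSO 0.6% (1.90), and its part in these differences was not tested.

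The second comparison is between replicate numbers. The replicate number was called by the limma F test, with treatment in the model, for 18 of the 20 member probe sets at an adjusted p under 0.10, against 44.6% of all probe sets. That test asks for any difference among the replicate numbers. An adjusted p printed beside a shift of replicate 3 is from it and is not a test of replicate 3 alone. Bright probe sets were called more often: 63.6% of those above the median level, and 16 of the 17 members there. Replicate 3 was higher than the mean of replicates 1 and 2 in 8 of the called members (17.3% of all probe sets) and lower in 10 (27.2%). The median size of that difference was 0.52 log2 in members and 0.19 over all probe sets, and over 1 log2 was reached by 4 members and by 3.98% of all probe sets. For each of the 20 it was larger than the difference between Bf 140 nM and DMSO 0.6%. The share of all probe sets for which this held was not counted. Over all probe sets the median sizes were 0.19 log2 for replicate 3 and 0.05 log2 for the treatment. Replicates 1 and 2 were closer, with a median size of difference of 0.13 log2 in members and 0.10 over all probe sets.

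**Figure D3:**
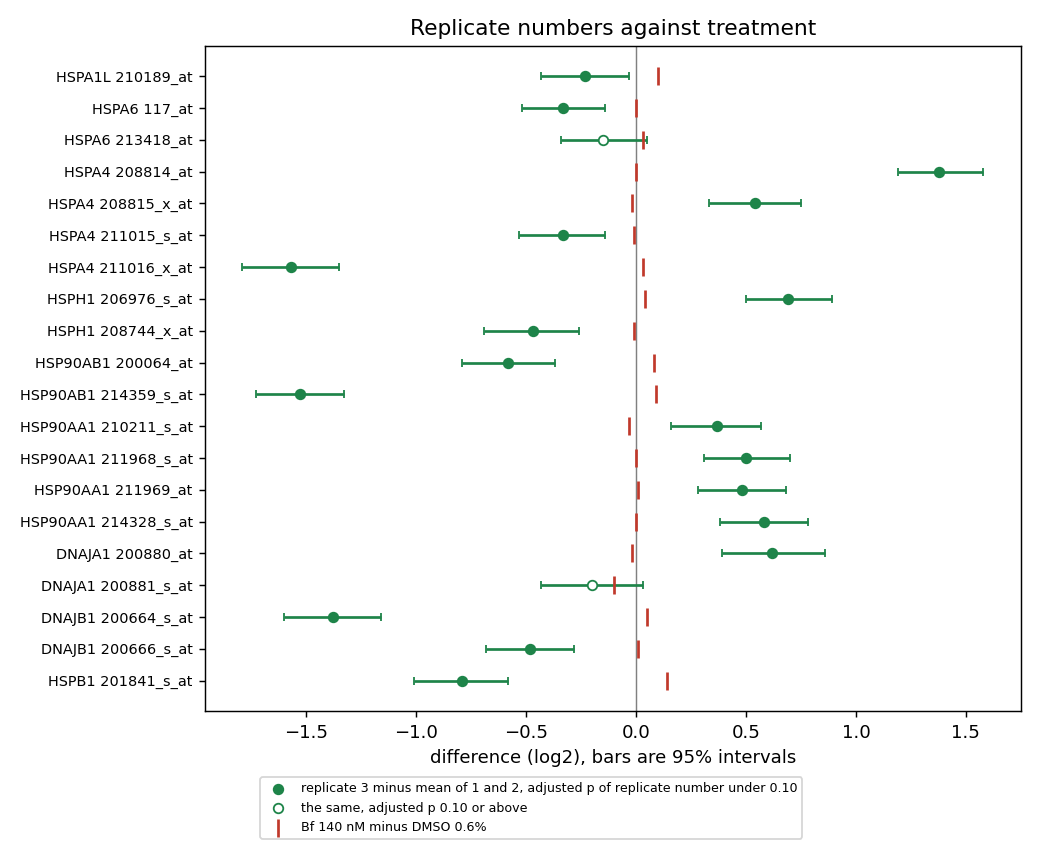
Replicate 3 minus the mean of replicates 1 and 2 (green, log2, horizontal axis) with 95% confidence intervals, and Bf 140 nM minus DMSO 0.6% (red bars), for each member probe set. Filled circles had an adjusted p under 0.10 for the replicate number. The green values run from -1.57 to 1.38 and the red ones from -0.10 to 0.14.

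Replicate 3 had higher HSP90AA1 and lower HSP90AB1. All 4 probe sets of HSP90AA1 were higher, by 0.37 to 0.58 log2 (adjusted p = 0.000868 to 0.0185, limma F test), and both of HSP90AB1 were lower, at -0.58 (adjusted p = 0.00145) and -1.53 (adjusted p = 6.16e-07). On 214359_s_at HSP90AB1 read 13.24, 13.20 and 11.77 in Bf 140 nM and 13.15, 13.22 and 11.57 in DMSO 0.6%. HSPB1 was lower in replicate 3, at -0.79 (adjusted p = 0.00012, limma), as was DNAJB1 at -0.48 and -1.38 (adjusted p = 0.00232 and 2.17e-06, limma). DNAJB1 read 9.65, 9.45 and 8.35 in Bf 140 nM and 9.68, 9.56 and 8.07 in DMSO 0.6% on 200664_s_at. Each replicate number holds 1 array of each treatment.

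Probe sets of the same gene moved in opposite directions between replicate numbers. HSPA4 was the widest case. Its probe set 208814_at read 8.63, 8.56 and 10.00 in Bf 140 nM and 8.73, 8.49 and 9.97 in DMSO 0.6%, which puts replicate 3 higher by 1.38 log2 (1.19 to 1.58, adjusted p = 9.91e-07, limma). Its probe set 211016_x_at read 10.26, 9.79 and 8.53 in Bf 140 nM and 10.08, 10.02 and 8.41 in DMSO 0.6%, with replicate 3 lower, at -1.57 log2 (-1.79 to -1.35, adjusted p = 1.05e-06, limma). The other 2 were at 0.54 and -0.33. HSPH1 was at 0.69 on 206976_s_at (adjusted p = 0.000233) and -0.47 on 208744_x_at (adjusted p = 0.00111, limma F test). On 208744_x_at the means of replicates 1, 2 and 3 were 11.11, 10.64 and 10.4, so replicate 2 was also below replicate 1. DNAJA1 was at 0.62 on 200880_at (adjusted p = 0.00127) and -0.20 on 200881_s_at (adjusted p = 0.282, limma).

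Both signs were thus seen for 3 of the 7 members with 2 or more probe sets, and for 53.3% of the 4310 genes of that kind on the array. A span over 1 log2 between the probe sets of a gene was seen for 2 of the 7 (HSPA4 with 2.95 and HSPH1 with 1.17) and for 17.5% of all. Between Bf 140 nM and DMSO 0.6% the probe sets of a member differed by at most 0.08 log2, for DNAJA1. The position of each probe set along its transcript was not used here, and the part of the 3′ and 5′ imbalance of replicate 3 in these shifts was not tested.

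**Figure D4:**
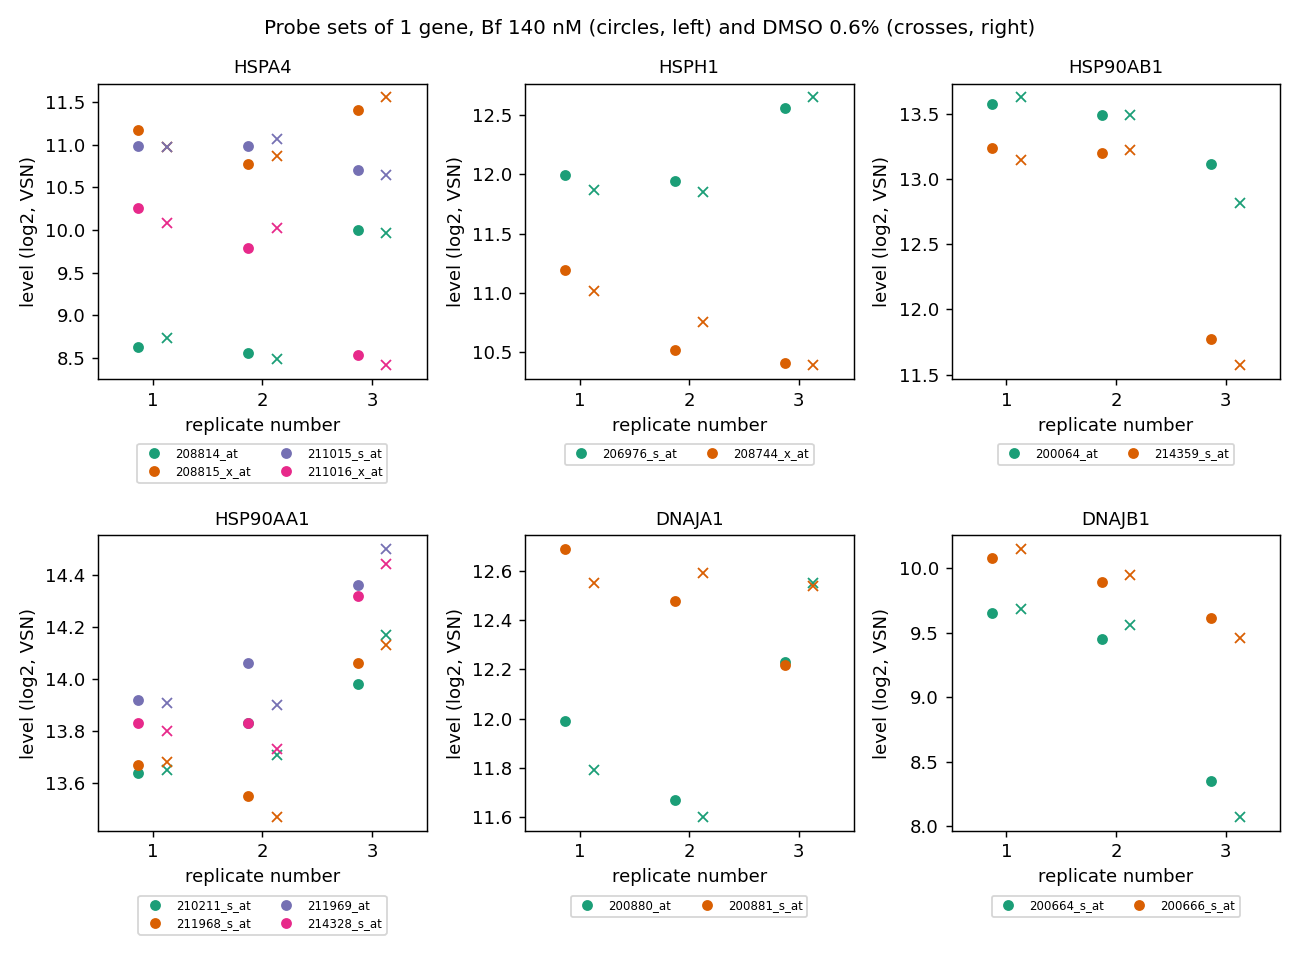
Level (vertical axis, log2 after VSN) of each probe set of 6 members by replicate number (horizontal axis), 1 colour for each probe set, with circles for Bf 140 nM and crosses for DMSO 0.6%. In replicate 3 the HSPA4 probe set 208814_at is high and 211016_x_at low in both groups, and each circle lies near its cross.

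The joint probe sets also differed from each other. Of the 3 for HSPA8, SNORD14C and SNORD14D, 210338_s_at read 13.90, 13.79 and 12.52 in Bf 140 nM and 13.86, 13.83 and 12.49 in DMSO 0.6% (adjusted p = 1.05e-06 for the replicate number, limma), while 221891_x_at read 13.56, 13.59 and 13.56 in Bf 140 nM and 13.52, 13.59 and 13.81 in DMSO 0.6% (adjusted p = 0.55). All 3 were at the percentile 96.7 of all probe sets or above on each array. The probe set joint to HSPA1L, HSPA1A and HSPA1B, 200800_s_at, had a mean level of 9.26. Its replicate 3 minus the mean of replicates 1 and 2 was -1.43 log2 (adjusted p = 1.47e-06 for the replicate number, limma F test).

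The calls of some small shifts of replicate 3 in members, and the direction of 1, depended on the scaling. With equal array medians the median of all probe sets for replicate 3 minus replicates 1 and 2 became 0.13 log2, against -0.07 as deposited. Then 15 members were called, 8 higher and 7 lower, and 11007 of all 22215 probe sets. The calls over all probe sets were 69.7% higher, against 38.9% as deposited. With quantile normalization 17 members were called, 8 higher and 9 lower, and 9682 of all probe sets. Of all calls 52.4% were then higher. The calls of HSPA1L, HSPA6 117_at and HSPA4 211015_s_at were lost with equal array medians, and HSPA6 213418_at, never called, turned to 0.05. HSPA1L and HSPA6 117_at were also lost with quantile normalization.

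The pattern over the 6 arrays that was most like the mean of the centred member probe sets (Pearson r, above the median level) was that of PSMB6, a proteasome subunit, with r = 0.9977. MARF1, MAGEA10, a cancer-testis antigen, and NDST1, an enzyme of heparan sulfate synthesis, followed with 0.9974, 0.9973 and 0.9968. PSMB6 read 11.87, 11.68 and 11.54 in Bf 140 nM and 11.81, 11.66 and 11.51 in DMSO 0.6%. The member mean itself was 0.12, -0.00 and -0.09 in Bf 140 nM and 0.08, -0.00 and -0.10 in DMSO 0.6%, so this likeness follows the replicate number, and it averages members that moved in opposite directions.

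The partners of these chaperones did not pass the test between Bf 140 nM and DMSO 0.6% either. Of the 6 probe sets of heat shock factors and their regulators, none passed (0 in each direction), and the median difference was -0.01 log2, between -0.14 for HSF1 and 0.08 for HSF4. HSF4, a heat shock factor of the lens, differed by 0.08 (-0.14 to 0.30). HSF1 differed by -0.14 (-1.02 to 0.75) on 213756_s_at, where replicate 3 was also lower (adjusted p = 8.56e-05, limma F test). Of 16 probe sets of HSP70 and HSP110 co-chaperones 0 passed in either direction and the median was 0.00, with BAG4, a nucleotide exchange factor, at 0.13 (-0.24 to 0.51) and DNAJC7, a J-domain protein, at 0.17 (-0.32 to 0.66) on 215252_at. Probe sets of DNAJC7 were both the highest and, at -0.12, the lowest of that list. Of 14 probe sets of HSP90 co-chaperones 0 passed in either direction and the median was 0.01, between -0.07 for PPID and 0.10 for FKBP5, with UNC45A, a myosin chaperone, at 0.09 and TTC4 at 0.07.

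Of 25 probe sets of further HSP70, J-domain and small heat shock proteins 0 passed in either direction and the median was -0.02. The lowest value was -0.17, for DNAJC8. The highest was 0.10 (-0.16 to 0.35), for DNAJB6, a suppressor of polyglutamine aggregates. DNAJC6 (auxilin), which uncoats clathrin vesicles, was at -0.09. Of 19 probe sets of the TRiC chaperonin, which folds actin and tubulin, and of prefoldin, which hands it clients, 0 passed in either direction and the median was 0.02, between -0.22 for CCT6A, a TRiC subunit, and 0.18 for PFDN4, a prefoldin subunit. PFDN5, another prefoldin subunit, was at 0.15 (-0.27 to 0.57) and 0.13 (-0.26 to 0.53) on its 2 probe sets with the smallest p. Of 23 probe sets of the chaperones of the endoplasmic reticulum and mitochondria 0 passed in either direction and the median was -0.01, between the values of HSPA13 and DNAJC1 (0.09), with HSPA13 at -0.19 (-0.58 to 0.21) and HSPA9, the mitochondrial HSP70, at -0.07. Between replicate numbers the limma F test called 3 of 6, 13 of 16, 8 of 14, 12 of 25, 13 of 19 and 19 of 23 probe sets of these lists in the order given, against 18 of 20 members and the 44.6% of all probe sets.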

How the data were processed

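Total RNA of SH-SY5Y cells was hybridized to 6 Affymetrix GeneChip expression arrays. The authors took cell intensities from GCOS, applied VSN (justvsn) in R 2.5.0 and deposited log2 values for 22277 probe sets, of which 62 platform controls were left out here. The sources used here do not give how probes were summarized, and the log base is that of the VSN method, which fits the range seen. Detection calls were not used here, so the study's filter on Present calls was left out. A dim probe set can therefore lie at background. Gene names came from the platform annotation (19064 probe sets with 1 symbol, 1043 with several, 2108 with none). The symbols of all 20 member probe sets are current in the RefSeq table of GRCh38.p14.

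Fits used limma 3.58.1 in R 4.3.3 (lmFit, eBayes) on 22215 probe sets with no filter, Benjamini-Hochberg adjustment over all of them and an adjusted p under 0.10, the level of the study. Its SAM test was not run. The fits were also run on simulated data with known changes, and no result given here rests on that run. The numbers were taken to pair the samples in the replicate block and in the pair differences, not in the main fit. Same-numbered arrays deviated together from their group means (r = 0.725, 0.783 and 0.880 over probe sets). Deviations from a mean of 3 arrays are not independent, so a replicate 3 that stands apart in both groups raises all 3 values. They cannot show by themselves that numbers 1 and 2 pair, and arrays of unlike number were not compared. The labels call the replicates biological and do not say what a number shares. The sample descriptions carry a further number, which differs between replicate numbers and is the same in both groups. The named genes were all member probe sets, the 2 probe sets with the smallest p in each of 6 lists and the 4 most alike in pattern. Members and lists were chosen with earlier results of these data known. The alternatives changed the scaling (quantile normalization, equal array medians), the model (replicate block, trend and robust eBayes, array weights, whose estimation stopped before convergence), the filter (median level), the threshold (0.05 and 0.2) or the arrays (each left out in turn, and both of replicate 3, the last added after seeing the data). Precision is limited by 3 arrays per group.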

Additional observations from a re-analysis of the deposited data

How the results depend on the processing

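In all 16 alternatives 0 of the member probe sets were called between Bf 140 nM and DMSO 0.6%, the replicate block included (0 called, median 0.01 log2). Over all probe sets 0 were called in each but 1: without both replicate 3 arrays and with the replicate block, a setting chosen after seeing the data, 25 were called, 0 of them members. The member median of 0.01 log2 became -0.01 with equal array medians and 0.03 without both replicate 3 arrays, and lay between -0.07 and 0.07 when 1 array was left out. Leaving out 1 array unbalances the replicate numbers by construction. The differences, of which none passed the test, changed sign as follows.

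Without both replicate 3 arrays, with or without the block, HSPA6 213418_at was at -0.01, HSPA4 208815_x_at at 0.05 and 211016_x_at at -0.02, HSP90AB1 200064_at at -0.02, HSP90AA1 210211_s_at at 0.05, DNAJA1 at 0.14 and 0.02, and DNAJB1 at -0.07 on both probe sets. With array weights HSPA4 208815_x_at and 211016_x_at were at 0.11 and -0.22, HSP90AB1 at -0.02 and -0.17, HSP90AA1 210211_s_at at 0.07, DNAJA1 200880_at at 0.22, and DNAJB1 at -0.18 and -0.05. With quantile normalization HSPA4 211016_x_at and DNAJB1 200666_s_at were at -0.01 and DNAJA1 200880_at at 0.01, and with equal array medians HSP90AA1 211969_at and DNAJB1 200666_s_at at -0.01. The differences of HSPA6 117_at, HSPA4 208814_at and HSP90AA1 211968_s_at and 214328_s_at rounded to 0 and have no sign to lose, but with 1 array left out they spanned -0.12 to 0.10, -0.47 to 0.45, -0.15 to 0.18 and -0.16 to 0.23, and array weights put HSPA4 208814_at at 0.25. For the others the span was -0.04 to 0.09 for HSPA6 213418_at, -0.16 to 0.19, -0.13 to 0.09 and -0.52 to 0.53 for HSPA4 208815_x_at, 211015_s_at and 211016_x_at, -0.16 to 0.30 and -0.26 to 0.13 for HSPH1, -0.16 to 0.24 and -0.45 to 0.57 for HSP90AB1, -0.13 to 0.13 and -0.11 to 0.21 for HSP90AA1 210211_s_at and 211969_at, -0.21 to 0.27 and -0.21 to 0.03 for DNAJA1, -0.47 to 0.45 and -0.19 to 0.15 for DNAJB1 and -0.17 to 0.36 for HSPB1. That of HSPA1L was -0.00 to 0.18. The cause was not tested.

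Between replicate numbers 15 to 19 members were called under the alternatives run for this comparison, which were the scalings, the filter, trend and robust eBayes, both thresholds and leaving out each array. Array weights and the removal of both replicate 3 arrays were not run for it. The member median of replicate 3 minus replicates 1 and 2, -0.22 log2, was -0.17 with quantile normalization, -0.02 with equal array medians and -0.26 to -0.20 with 1 array left out. HSPA6 213418_at turned to 0.05 with equal array medians. Calls of HSPA1L and HSPA6 117_at were lost without Bf replicate 2, DMSO replicate 2 or DMSO replicate 3, and that of HSPA1L also without Bf replicate 3. The call of HSPA4 211015_s_at was lost without DMSO replicate 2 or 3 and that of HSP90AA1 210211_s_at without DMSO replicate 3 (0.25, adjusted p = 0.177, limma), while DNAJA1 200881_s_at was called without DMSO replicate 1 or 3 and with quantile normalization (-0.44, adjusted p = 0.00462, limma).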
